A study of Mus musculus with 80 samples.

Results

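Acyl-CoA thioesterases are enzymes that hydrolyse acyl-CoA esters to the free acid and coenzyme A. Of this enzyme group, 8 genes were followed in mouse liver, namely Acot1, Acot2, Acot3, Acot4, Acot8, Acot9, Acot12 and Acot13. They were chosen by symbol from the 78275 genes listed in the deposited count table, and all 8 were among the 21187 genes that passed the filter on low counts. The livers came from C57BL/6J mice of both sexes, an inbred strain with no transgene, which were 8 to 12 weeks old when bought, were housed in groups and were released into constant darkness for the experiment. Control mice kept free access to chow throughout, whereas fasted mice lost their food at circadian time (CT) 10, shortly before the subjective night that begins at CT12. Livers were taken every 4 h from CT8 to CT44, so that CT8 preceded the removal of food and the last fasted mice had been without food for 34 h. Each treatment and time was represented by 2 males and 2 females, which gave 80 poly(A) libraries, 1 per mouse.

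Acyl-CoA esters are the activated form in which fatty acids are oxidised, esterified or elongated, and thioesterases return them to free acids while releasing coenzyme A for reuse. The mouse enzymes fall into a family clustered on 1 chromosome (ACOT1 in the cytosol, ACOT2 in the mitochondrial matrix, ACOT3 and ACOT4 in peroxisomes) and into structurally unrelated enzymes with a hotdog fold, such as ACOT8 in peroxisomes, ACOT9 in mitochondria, ACOT12 in the cytosol and ACOT13 on mitochondria and in the cytosol. In liver, several of these genes are textbook targets of the fatty acid receptor PPAR-alpha, which is active when adipose tissue releases fatty acids during food deprivation.

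In the GENCODE M21 annotation of the GRCm38 build, Acot2, Acot1, Acot4, Acot3, Acot5 and Acot6 lie side by side on the plus strand of chromosome 12 within 123.5 kb, from 83987861 to 84111349. The other 4 members are scattered: Acot8 on chromosome 2 (164792765 to 164804882, minus strand), Acot9 on chromosome X (155262443 to 155297654, plus strand), Acot12 on chromosome 13 (91741512 to 91786148, plus strand) and Acot13 on chromosome 13 (24817948 to 24831540, minus strand). Promoter sequences of 7 of the 8 members were matched in RefSeq (GRCm38.p6), each holding 250 bases before and 50 bases after the annotated start. Those of the 4 clustered members, of Acot8 and of Acot12 are printed 5′ to 3′ because these 6 genes rose in fasted livers. They are chr12:83987611-83987910 for Acot2, chr12:84009252-84009551 for Acot1, chr12:84038129-84038428 for Acot4, chr12:84051894-84052193 for Acot3 and chr13:91741271-91741570 for Acot12, all on the plus strand, and chr2:164804832-164805131 for Acot8 on the minus strand. Capitals mark TGACCT, the reverse complement of AGGTCA, the core motif that nuclear receptors bind.
Acot2: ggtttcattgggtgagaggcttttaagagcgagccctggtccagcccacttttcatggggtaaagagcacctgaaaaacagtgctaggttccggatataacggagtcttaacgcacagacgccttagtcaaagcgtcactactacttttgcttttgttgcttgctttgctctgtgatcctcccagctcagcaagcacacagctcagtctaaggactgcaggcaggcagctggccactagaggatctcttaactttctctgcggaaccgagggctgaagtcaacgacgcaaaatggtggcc
Acot1: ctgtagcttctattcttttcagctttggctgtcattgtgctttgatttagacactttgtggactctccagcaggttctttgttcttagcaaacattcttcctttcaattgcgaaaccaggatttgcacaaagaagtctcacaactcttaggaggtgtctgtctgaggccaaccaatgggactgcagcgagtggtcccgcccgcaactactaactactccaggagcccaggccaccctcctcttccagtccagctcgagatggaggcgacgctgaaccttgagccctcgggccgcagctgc
Acot4: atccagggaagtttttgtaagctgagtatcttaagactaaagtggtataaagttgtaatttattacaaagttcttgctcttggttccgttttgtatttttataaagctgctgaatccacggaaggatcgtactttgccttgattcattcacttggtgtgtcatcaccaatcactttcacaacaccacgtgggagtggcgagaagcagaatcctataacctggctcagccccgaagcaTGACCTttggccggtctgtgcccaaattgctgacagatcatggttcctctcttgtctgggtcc
Acot3: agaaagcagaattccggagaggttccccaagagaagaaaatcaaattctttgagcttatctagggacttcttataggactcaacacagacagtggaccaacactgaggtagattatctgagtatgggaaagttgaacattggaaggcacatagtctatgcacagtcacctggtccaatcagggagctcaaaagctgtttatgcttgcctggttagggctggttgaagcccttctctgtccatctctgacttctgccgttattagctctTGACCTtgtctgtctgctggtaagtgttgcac
Acot8: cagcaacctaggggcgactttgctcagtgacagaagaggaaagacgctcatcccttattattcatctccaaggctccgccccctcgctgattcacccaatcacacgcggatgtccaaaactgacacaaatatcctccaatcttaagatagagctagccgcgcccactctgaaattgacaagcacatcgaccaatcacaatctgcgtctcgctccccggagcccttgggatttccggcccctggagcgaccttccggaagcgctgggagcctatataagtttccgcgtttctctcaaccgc
Acot12: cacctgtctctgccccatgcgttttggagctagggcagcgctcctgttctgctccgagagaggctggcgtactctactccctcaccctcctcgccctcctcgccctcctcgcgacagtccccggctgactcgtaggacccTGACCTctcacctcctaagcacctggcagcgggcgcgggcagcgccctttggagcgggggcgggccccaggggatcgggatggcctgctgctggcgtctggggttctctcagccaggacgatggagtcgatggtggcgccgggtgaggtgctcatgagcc

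Searched on both strands, AGGTCA was found in 3 of the 7 member promoters and in 16.3% of all 32851 RefSeq mouse promoters of the same length. The 3 were those of Acot3, Acot4 and Acot12, at position 18, position -13 and position -110 from the annotated start. The promoter of Acot9, which is not printed, did not hold it. A direct repeat of AGGTCA with a spacer of 1 base, the arrangement bound by PPAR-alpha with its partner RXR, was found in none of the 7 member promoters and in 0.0396% of all promoters. A looser repeat of AGGNCA with the same spacer, which contains the strict form, was likewise found in none of the 7 and in 0.381% of all. The E-box CACGTG, the motif of the CLOCK and BMAL1 heterodimer, was found in the Acot4 promoter alone, at position -66, and in 7.15% of all promoters. These are matches of letters within a short window and give no information on binding.

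The files held between 25534901 and 59927771 counts per library, with a median of 42303883. Groups were taken from the sample titles, because the further label fields named another sex for 40 libraries and another treatment for 40, and the levels of Xist and Ddx3y matched the sex in the title for 80 of 80 libraries. In 1 library, control CT8 female 2, the ribosomal RNA gene Rn18s-rs5 took 31.3% of the counts, against at most 4.88% elsewhere. The 7 hepatocyte markers, of which 4 rose and 2 fell, had a summed level of 66090 to 118730 CPM (counts scaled to a common library size) in controls and 80130 to 138679 CPM in fasted livers. The pancreatic acinar marker Prss1 was at 0 in every library, and of the other acinar markers tested 0 rose and 1 fell, while of 2 adipocyte markers tested neither passed. For these 2, Adipoq and Cfd, no fold could be estimated. Of the markers of other cell types, 0 rose and 5 fell of 6 for Kupffer cells (summed 184 to 666 CPM in controls, 126 to 405 CPM in fasted), 2 rose and 2 fell of 5 for endothelial cells, 1 rose and 4 fell of 5 for stellate cells, 0 rose and 3 fell of 4 for cholangiocytes, and 0 rose and 3 fell of 4 for lymphocytes. The part of these shifts in the results on the thioesterases was not tested, and in whole tissue fewer cells of a type and less RNA per cell cannot be told apart.

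Under fasting, the thioesterase transcripts of the liver separated into a group that rose, led by Acot1 and Acot2, and a pair that did not. Averaged over CT12 to CT44, 6 of the 8 genes rose (Acot1, Acot2, Acot3, Acot4, Acot8 and Acot12), Acot13 fell, and Acot9 did not pass the test. Over all genes tested, 62.5% passed the same test, 29.5% higher and 32.9% lower in fasted livers, by edgeR's quasi-likelihood test with Benjamini-Hochberg adjustment, as used throughout. The median of the 8 mean log2 differences was 1.16, beside -0.02 over all genes tested.

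**Figure D1:**
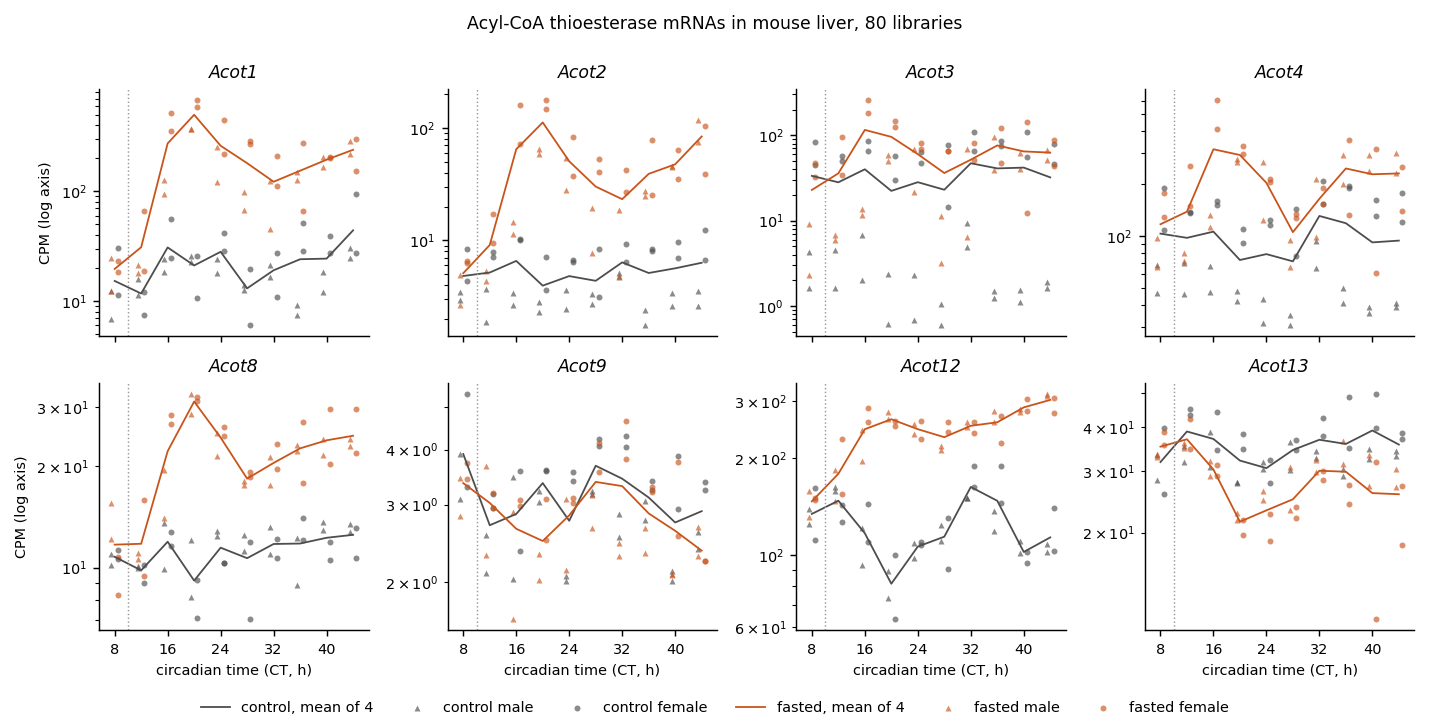
CPM of each gene (vertical axis, log scale) against circadian time in hours (horizontal axis), with 1 point per library, colour for treatment, triangles for males, circles for females, lines through the means of 4 libraries and a dotted line at food removal (CT10). Acot1 points of fasted mice lie above those of controls at every time after food removal, whereas control Acot3 points split by sex.

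Acot1 encodes the cytosolic long-chain acyl-CoA thioesterase. Its level over CT12 to CT44 ran from 6.08 to 94.0 CPM in the 36 control libraries (median 22.0) and from 18.1 to 675.7 CPM in the 36 fasted libraries (median 202.7). At CT20, the 2 control males held 25.6 and 22.6 CPM and the 2 control females 10.8 and 25.6 CPM, while the fasted males held 368.7 and 369.5 CPM and the fasted females 675.7 and 582.3 CPM. Every fasted library lay above every control library at this time, and the same was true at all 9 times from CT12 onwards. Of all genes, 3.11% (CT12) to 15% (CT20) were separated in this direction at a single time. The mean difference was 2.98 on the log2 scale (SE 0.15, 7.88-fold, edgeR adjusted p = 5.03e-22).

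Acot2 encodes the mitochondrial counterpart, whose coding sequence was 85.6% identical to that of Acot1. It ran from 1.78 to 12.5 CPM in controls (median 4.21) and from 4.37 to 175.7 CPM in fasted livers (median 39.5). At CT20, control males held 2.31 and 2.82 CPM and control females 3.64 and 7.07 CPM, against 64.7 and 58.2 CPM in fasted males and 175.7 and 148.2 CPM in fasted females. The groups did not overlap at this time, nor at 5 others (CT16, CT24, CT36, CT40 and CT44). At a single one of these times, 9.57% (CT16) to 15% (CT20) of all genes were separated in this direction. Its mean log2 difference was 2.94 (SE 0.13, 7.65-fold, edgeR adjusted p = 7.41e-24). Of the 76-nt windows of the transcript, 26.3% in Acot1 and 21.0% in Acot2 were shared with a neighbour, so that reads from those stretches could have been counted for either gene. With the counts of Acot1 and Acot2 summed into 1 feature, the mean log2 difference was 2.96, and with all 4 clustered members summed it was 1.85.

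Acot3 and Acot4, the peroxisomal members of the cluster, behaved differently in the sexes. In control livers from CT12 to CT44, Acot3, which acts on long-chain acyl-CoAs, ran from 0.603 to 9.42 CPM in males (median 1.63, n = 18) and from 14.4 to 109.2 CPM in females (median 64.1, n = 18). The sexes did not overlap at all in this group, and the share of all genes so separated was not computed. In fasted livers it ran from 3.16 to 96.5 CPM in males (median 39.6) and from 12.2 to 256.3 CPM in females (median 81.0), and the ranges overlapped widely. The Acot3 sex difference in controls (female minus male, 10 times) was 4.90 on the log2 scale (SE 0.31, edgeR adjusted p = 6.8e-18). Over CT12 to CT44 it was 4.95 in controls (SE 0.32) and 1.62 in fasted livers (SE 0.27, edgeR adjusted p = 4.44e-06), where 38% of all genes passed.

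The Acot3 transcript of males came up unevenly during the fast. Fasted males 1 and 2 held 5.94 and 6.70 CPM at CT12, 13.5 and 11.8 CPM at CT16, and 50.6 and 59.2 CPM at CT20. They held 21.5 and 68.8 CPM at CT24, 11.3 and 3.16 CPM at CT28, and 68.1 and 6.46 CPM at CT32. At the end of the series the pairs were 96.5 and 39.5 CPM at CT36, 62.6 and 39.8 CPM at CT40, and 67.3 and 50.9 CPM at CT44. The 18 control males pooled over CT12 to CT44 ran from 0.603 to 9.42 CPM. Both fasted males lay within this pooled range at CT12, but above the 2 control males of that time (1.62 and 4.57 CPM). At CT28 and CT32, 1 of the 2 fasted males lay within it, and at the other times both lay above it. Control males of the same time had a mean of 0.826 CPM at CT28 and 7.18 CPM at CT32. In females, the means of controls and fasted mice were 75.4 and 218.2 CPM at CT16, and 43.1 and 136.5 CPM at CT20. They were 53.1 and 65.2 CPM at CT12, 54.9 and 74.9 CPM at CT24, and 45.2 and 65.0 CPM at CT28. Later they were 86.8 and 66.1 CPM at CT32, 80.4 and 84.0 CPM at CT36, and 82.3 and 78.0 CPM at CT40. At CT44 female controls held 78.6 and 46.4 CPM and fasted females 43.6 and 88.8 CPM, which overlapped. The male fasting effect was 3.79 and the female effect 0.46 on the log2 scale, the latter without passing the test (edgeR adjusted p = 0.128, beside 46.3% of all genes that passed in males and 58.4% in females). The difference between them was itself significant, at -3.33 (female minus male effect, SE 0.40, edgeR adjusted p = 5.35e-07). The Acot3 mean of 2.13 over both sexes (SE 0.20, edgeR adjusted p = 1.28e-12) therefore averaged unlike effects, and with no sex in the model it was 0.93 and did not pass (edgeR adjusted p = 0.0736).

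Acot4, a peroxisomal enzyme with activity on succinyl-CoA and other acyl-CoAs, showed the same arrangement with smaller differences. Control males ran from 30.8 to 93.9 CPM (median 42.8) and control females from 76.9 to 208.2 CPM (median 140.3), and at each of the 10 control times both females exceeded both males. Fasted males ran from 66.5 to 299.3 CPM (median 206.7) and fasted females from 61.3 to 602.2 CPM (median 208.4), and both females exceeded both males at 4 of 9 times. The share of all genes in this order was not computed, and with 2 mice against 2 it can arise by chance at a single time. The fasting effect on the log2 scale was 1.85 in males and 0.67 in females, and the difference of -1.18 (SE 0.20) passed the test (edgeR adjusted p = 0.00011). It did so in every alternative fit but 1, the fit without male replicate 1 (adjusted p = 0.052). The mean Acot4 effect over both sexes was 1.26 (SE 0.10, 2.39-fold, edgeR adjusted p = 9.19e-15). For Acot3, 16.4% of windows were shared with other genes, and for Acot4 1.68%, and both genes are overlapped by Gm49366 on the same strand and by 4732463B04Rik on the other.

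**Figure D2:**
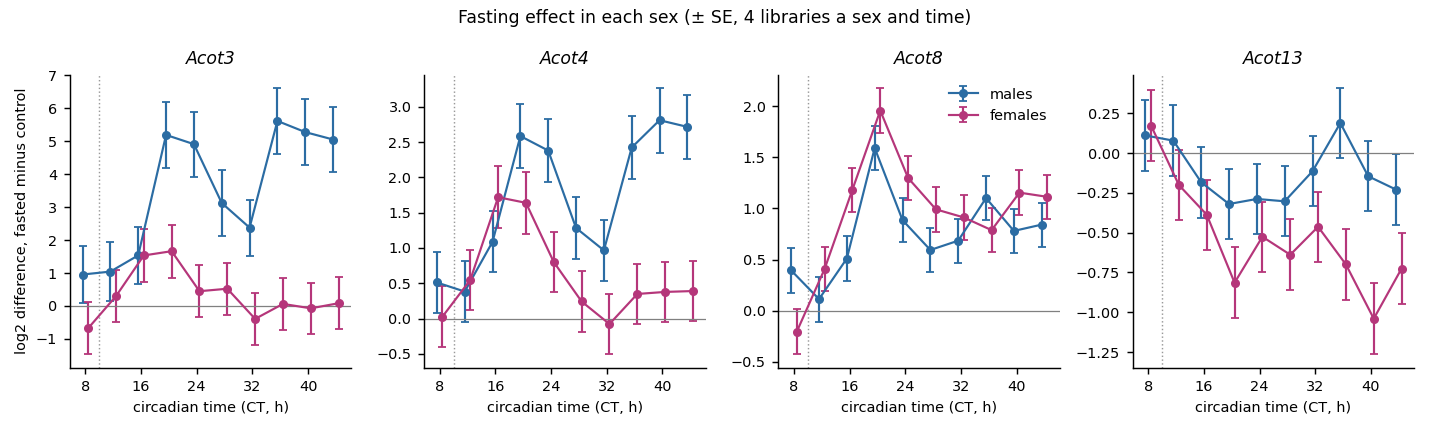
Fasting effect (log2, fasted minus control) at each circadian time in hours for females and males separately, with bars of 1 SE, for the 4 genes whose effect differed between the sexes, and a dotted line at food removal. The male points of Acot3 and Acot4 stand above the female points from CT20 onwards, and those of Acot13 are nearer 0 than the female points at each time.

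Over all 8 genes, 6 differed between the sexes in controls, each higher in females, beside 39.2% of all genes (20.6% higher in females). The log2 sex difference was 0.64 for Acot1 (SE 0.19), 1.30 for Acot2 (SE 0.18), 1.57 for Acot4 (SE 0.14), 0.41 for Acot9 (SE 0.07) and 0.24 for Acot13 (SE 0.07), in addition to that of Acot3. The calls of Acot1 and Acot13 were lost when some replicates were left out. Acot8, at -0.11 (SE 0.07), and Acot12, at 0.07 (SE 0.06), did not pass. The fasting effect itself differed between the sexes in 4 genes, beside 12.4% of all genes. Female minus male effect was positive in 1 and negative in 3, beside 5.35% and 7.02% of all genes. A negative sign meant a smaller rise in females for Acot3 and Acot4, but a larger fall in females for Acot13. Besides Acot3 and Acot4 the 4 genes were Acot8, with 0.79 in males and 1.09 in females (difference 0.30, SE 0.10, edgeR adjusted p = 0.0429), and Acot13, with -0.15 in males and -0.61 in females (difference -0.46, SE 0.10, edgeR adjusted p = 0.00241). The male value of Acot13 did not pass in the joint fit (edgeR adjusted p = 0.101) and passed in the fit on males alone (-0.15, edgeR adjusted p = 0.00459). The Acot8 call was lost in 4 of 9 alternative fits, among them the fit with a replicate block (adjusted p = 0.0788), and the Acot13 call was lost without either male replicate (adjusted p = 0.129 and 0.180). Acot1 and Acot2 rose in both sexes, by 2.85 and 3.01 in males and by 3.11 and 2.86 in females. The log2 differences between the effects were 0.26 (SE 0.28) for Acot1, -0.14 (SE 0.25) for Acot2, -0.08 (SE 0.11) for Acot9 and -0.03 (SE 0.09) for Acot12, and none of these 4 passed the test.

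Per length of annotated exons, the share of the 4 clustered members in their summed level shifted with sex and food. In control males, Acot4 made up 51.6% ± 8.39 of the sum (SD, n = 18), Acot1 33.5% ± 9.58, Acot2 10.2% ± 2.67 and Acot3 4.70% ± 2.93. In control females, Acot4 made up 43.2% ± 6.82 and Acot3 36.0% ± 5.64, with 14.0% ± 6.75 for Acot1 and 6.91% ± 0.909 for Acot2. After food removal Acot1 had the highest mean share in both sexes, at 41.4% ± 9.21 in males and 40.8% ± 13.5 in females. Acot3 then held 10.6% ± 5.09 in males and 17.5% ± 6.25 in females. These shares are a description without a test, and they depend on the length used. The annotated exons of Acot1 cover 3919 bp, but its transcript used for the shared windows holds 2272 nt. For Acot4 the lengths are 6674 bp and 6203 nt. With transcript lengths the share of Acot1 would be larger, and whether Acot4 would still lead in control males was not tested.

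Acot8 encodes a peroxisomal thioesterase of broad substrate range, which also acts on bile acid intermediates. It stayed between 7.04 and 14.0 CPM in controls (median 11.7) and between 9.47 and 32.7 CPM in fasted livers (median 22.1). At CT20, controls held 8.20, 12.1, 7.07 and 9.22 CPM and fasted mice 28.5, 32.7, 31.3 and 32.02 CPM, in the order male 1, male 2, female 1 and female 2. From CT16 on the groups did not overlap at any of 8 times, beside 9.3% (CT32) to 15% (CT20) of all genes at a single time. The mean log2 difference was 0.94 (SE 0.05, 1.92-fold, edgeR adjusted p = 1e-20).

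Acot12, the cytosolic acetyl-CoA hydrolase, was among the most abundant of the 8 transcripts. It ran from 63.5 to 189.1 CPM in controls (median 110.9) and from 147.4 to 315.2 CPM in fasted livers (median 258.6). At CT20, the order male 1, male 2, female 1 and female 2 gave 73.4, 89.4, 63.5 and 100.1 CPM in controls and 264.4, 278.5, 260.5 and 252.3 CPM in fasted mice. As for Acot8, the groups did not overlap at 8 of 9 times, CT12 being the exception. At a single time, 9.3% (CT32) to 15% (CT20) of all genes were so separated. The mean log2 difference of 1.07 (SE 0.04, 2.10-fold, edgeR adjusted p = 2.55e-25) had the smallest SE of the 8 genes.

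Acot13 encodes a thioesterase that partners the phosphatidylcholine transfer protein, and it was the member that fell. It ran from 27.6 to 49.6 CPM in controls (median 34.5) and from 11.3 to 42.2 CPM in fasted livers (median 27.8). At CT20, controls held 27.8, 27.6, 38.2 and 34.7 CPM and fasted mice 22.8, 21.7, 19.7 and 21.7 CPM in the same order, without overlap. All fasted libraries were also below all controls at CT24, CT32 and CT44, beside 9.52%, 9.23% and 16.2% of all genes. The mean log2 difference was -0.38 (SE 0.05, 0.769-fold, edgeR adjusted p = 1.97e-08). The lowest fasted value came from 1 library, fasted CT40 female 2, which also had the lowest fasted Acot4 level (61.3 CPM) and a low Acot3 level (12.2 CPM) beside 204.6 CPM of Acot1 and 305.1 CPM of Acot12. Without it, the CT40 difference of Acot13 went from -0.59 to -0.30 and no longer passed (edgeR adjusted p = 0.0775).

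With the sexes pooled, Acot9, the mitochondrial enzyme, had the lowest mean level per kb of annotated exon of the 8. In control males alone Acot3 was lower, at 0.744 beside 1.15 CPM per kb. Acot9 ran from 2.01 to 4.30 CPM in controls (median 3.17) and from 1.65 to 4.66 CPM in fasted livers (median 2.77). At CT20, controls held 3.04, 3.21, 3.58 and 3.60 CPM and fasted mice 2.03, 2.31, 2.49 and 3.09 CPM, which overlapped in 1 fasted female. The mean log2 difference was -0.11 (SE 0.06, edgeR adjusted p = 0.0846), and it passed in the fit without CT12 (-0.14, adjusted p = 0.0309). Its coding sequence was 97.2% identical to that of Acot10, a gene with at most 4 counts in any of the CT12 to CT44 libraries.

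Levels of different genes were compared only per kb of annotated exon, and the order depends on this choice of length. For Acot1 the annotated exons (3919 bp) are much longer than its transcript (2272 nt), so that per kb of transcript its level would be higher. Its place among the other genes on that scale was not tested. In controls the mean level was 47.8 ± 7.53 CPM per kb for Acot13 (SD, n = 36) and 36.9 ± 8.93 for Acot12, followed by Acot4 at 14.3 ± 8.24, Acot3 at 9.80 ± 10.4, Acot1 at 6.14 ± 4.25, Acot8 at 5.64 ± 0.914, Acot2 at 2.45 ± 1.32 and Acot9 at 1.35 ± 0.290. Apart from the steps from Acot12 to Acot4 and from Acot8 to Acot2, neighbouring means in this order differed by less than the sum of their SDs. In fasted livers the order was Acot12 at 76.5 ± 11.9 CPM per kb, Acot1 at 55.4 ± 40.4, Acot13 at 37.1 ± 8.19, Acot4 at 31.9 ± 16.9, Acot2 at 23.2 ± 19.97, Acot3 at 19.3 ± 15.8, Acot8 at 11.1 ± 2.94 and Acot9 at 1.25 ± 0.290. There, only the step from Acot8 to Acot9 exceeded the summed SDs.

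The course of the response was then followed time by time. Before food removal, at CT8, none of the 8 genes passed (0 at an unadjusted p below 0.05, and 0 by DESeq2 and limma), beside 1.33% of all genes by edgeR. At CT12, after 2 h without food, again 0 of 8 passed in edgeR (3 at an unadjusted p below 0.05), beside 1.6% of all genes, while DESeq2 called Acot1 (log2 difference 1.32, DESeq2 adjusted p = 0.0386). At CT16, 5 genes passed, all higher, beside 23.4% of all genes (11.5% higher). At CT20 all 8 passed, 6 higher and 2 lower, beside 36.6% of all genes (17.5% higher and 19.1% lower). The lower call of Acot9 at CT20 was lost in each of the 4 fits that left out a replicate (edgeR adjusted p = 0.0629 to 0.209), and that of Acot13 without male replicate 1 (0.0812) or male replicate 2 (0.110). Counts then were 6 higher at CT24, beside 24.1% of all genes (12.2% higher), 5 higher and 1 lower at CT28, beside 21% (9.88% higher and 11.1% lower), 4 higher at CT32, beside 17.7% (8.4% higher), and 6 higher at CT36, beside 26.8% (12.8% higher). Without male replicate 1 all 4 calls at CT32 were lost, with edgeR adjusted p of 0.0525 for Acot1, 0.241 for Acot2 (log2 difference 1.02 in place of 1.70), 0.0567 for Acot8 and 0.0522 for Acot12. At both CT40 and CT44, 6 genes passed higher and 1 lower, beside 39.9% of all genes at CT40 (18.7% higher and 21.2% lower) and 39.4% at CT44 (18.7% higher and 20.7% lower). The lower calls at CT28, CT40 and CT44 were all of Acot13, and each was lost without male replicate 1 or male replicate 2. Non-overlapping groups at CT20 were seen for 5 genes with fasted libraries higher and for Acot13 with fasted libraries lower, beside 15% and 14.7% of all genes.

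CT20, within the first subjective night, was the time of the largest difference for 7 of the 8 genes. The log2 difference there was 4.53 for Acot1 (SE 0.48), 4.75 for Acot2 (SE 0.42), 3.43 for Acot3 (SE 0.63), 2.11 for Acot4 (SE 0.32), 1.78 for Acot8 (SE 0.16) and 1.69 for Acot12 (SE 0.13), and -0.45 for Acot9 (SE 0.17). At CT32, in the subjective day that followed, the same 6 rising genes stood at 2.61, 1.70, 0.99, 0.44, 0.80 and 0.63, in that order, and those of Acot3 and Acot4 did not pass. By CT44 they stood at 2.55, 3.93, 2.57, 1.55, 0.98 and 1.42. Whether the effect changed over CT12 to CT44 was tested directly, and it did for 5 genes, beside 33.7% of all genes. These were Acot12 (edgeR adjusted p = 7.34e-07), Acot2 (9.53e-06), Acot8 (0.000209), Acot1 (0.00667) and Acot4 (0.0137). Calls for 3 of them, Acot1, Acot4 and Acot8, were lost without either male replicate, and Acot3 (edgeR adjusted p = 0.0789) passed without the library fasted CT40 female 2 (adjusted p = 0.0281). In fasted mice the time of day and the length of the fast advanced together, and their effects cannot be told apart.

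**Figure D3:**
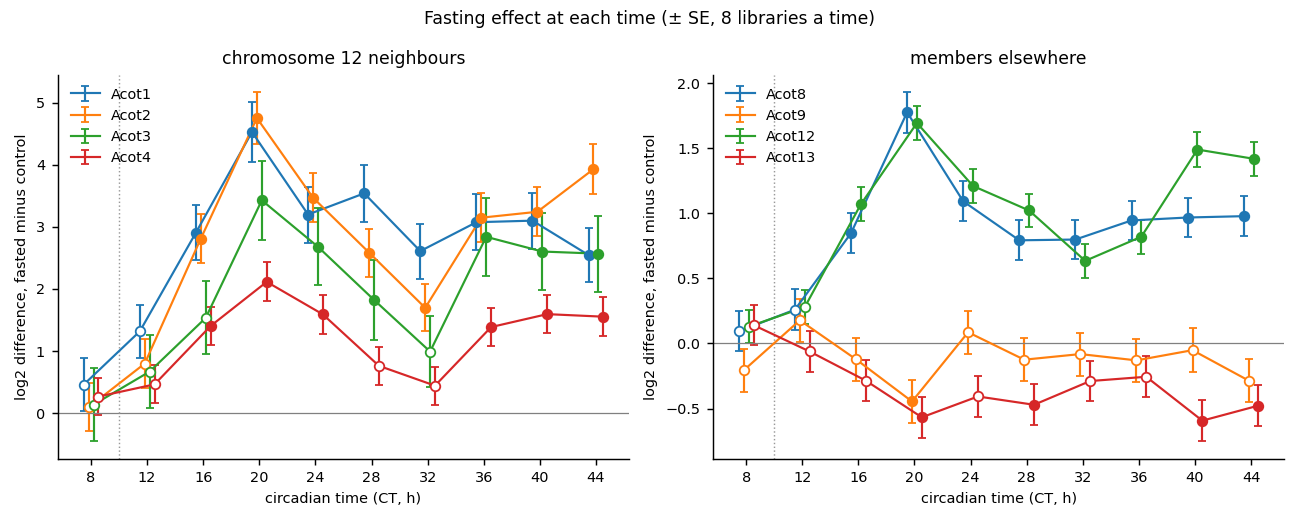
Fasting effect (log2, fasted minus control, both sexes) of the 8 genes at each circadian time in hours, with bars of 1 SE, filled points for an adjusted p below 0.05 and a dotted line at food removal. The 6 rising genes are highest at CT20 and, except Acot1 at CT44, stand higher at CT40 and CT44 than at CT32, while Acot9 and Acot13 stay between 0.18 and -0.59.

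A 24 h cosine was fitted separately to control and fasted livers. In controls, 5 of the 8 genes passed, beside 41.8% of all genes. Acot12 peaked at CT9.39, with 0.66 between peak and trough on the log2 scale (edgeR adjusted p = 6.13e-06), and it passed in all 12 alternative fits. Acot4 (0.63, peak CT11.1, edgeR adjusted p = 0.00295), Acot1 (1.07, peak CT19.8, adjusted p = 0.00943), Acot9 (0.35, peak CT5.19, adjusted p = 0.0335) and Acot13 (0.25, peak CT13.5, adjusted p = 0.0411) passed as well. Of the 12 alternative fits, the call was lost in 2 for Acot1, 3 for Acot4, 5 for Acot13 and 8 for Acot9. That of Acot9 was lost, among others, without control CT8 female 2, the library rich in Rn18s-rs5 (edgeR adjusted p = 0.0562). Acot2, Acot3 and Acot8 did not pass, with adjusted p of 0.749, 0.0991 and 0.796.

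In fasted livers, where the model also held a linear trend, 7 of the 8 genes passed, beside 47.1% of all genes, Acot3 being the exception (edgeR adjusted p = 0.202). This fit covered CT12 to CT44 of a single fast, whereas that of controls covered CT8 to CT44 without a trend. A 24 h rhythm and a rise and fall that follow food removal cannot be told apart in it. The test of a difference between the cosines used CT12 to CT44 and a trend in both treatments. Peak and trough were 2.43 apart on the log2 scale for Acot2 (peak CT20.5, edgeR adjusted p = 2.34e-05), 2.06 for Acot1 (peak CT21.3, adjusted p = 0.000372), 1.12 for Acot4 (peak CT17.7, adjusted p = 0.0155) and 0.64 for Acot8 (peak CT21.0, adjusted p = 0.00148). Acot13 (0.55, peak CT11.1), Acot9 (0.47, peak CT6.58) and Acot12 (0.26, peak CT20.2) completed the set. Each of the 7 lost its call in at least 1 of 8 alternative fits, and females taken alone gave 1 call and males taken alone 4. The cosine of fasted livers differed from that of controls for Acot12 (edgeR adjusted p = 5.86e-07), Acot2 (6.37e-05), Acot8 (0.0185) and Acot4 (0.0229), beside 21.6% of all genes, whereas that of Acot1 was not shown to differ (adjusted p = 0.204). Of these 4 differences only that of Acot12 passed in all 8 alternative fits, and those of Acot4 and Acot8 passed in 4. The fitted Acot12 peak lay late in the subjective day in controls and late in the subjective night in fasted mice, but its fasted rhythm itself lost its call in 5 of 8 alternative fits, more than any other of the 7 genes (adjusted p = 0.284 in females alone and 0.0763 in males alone).

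A second table of the same libraries counted reads over 470140 exon bins, and it was used to see whether each change was carried by the whole gene. All tested bins were higher in fasted livers for Acot1 (10 of 10), Acot2 (3 of 3), Acot3 (6 of 6), Acot4 (6 of 6), Acot8 (11 of 11) and Acot12 (19 of 19). All 6 bins of Acot13 were lower, and 3 of 15 bins of Acot9 were higher. The log2 difference of the bins ran from 2.72 to 3.12 in Acot1, from 2.87 to 2.95 in Acot2, from 0.93 to 1.63 in Acot4 and from 0.56 to 1.11 in Acot8. No member passed the test of unequal bins (edgeR's diffSpliceDGE, Simes method), beside 14.3% of the 13889 genes with more than 1 bin. Acot4 and Acot8 had unadjusted p of 0.0113 and 0.0419 and adjusted p of 0.0729 and 0.200, and limma's diffSplice also called 0 of 8. Libraries of fasted CT40 were fitted as 1 group of 4 here, since 3 of their exon columns matched the gene counts of another library of that group.

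**Figure D4:**
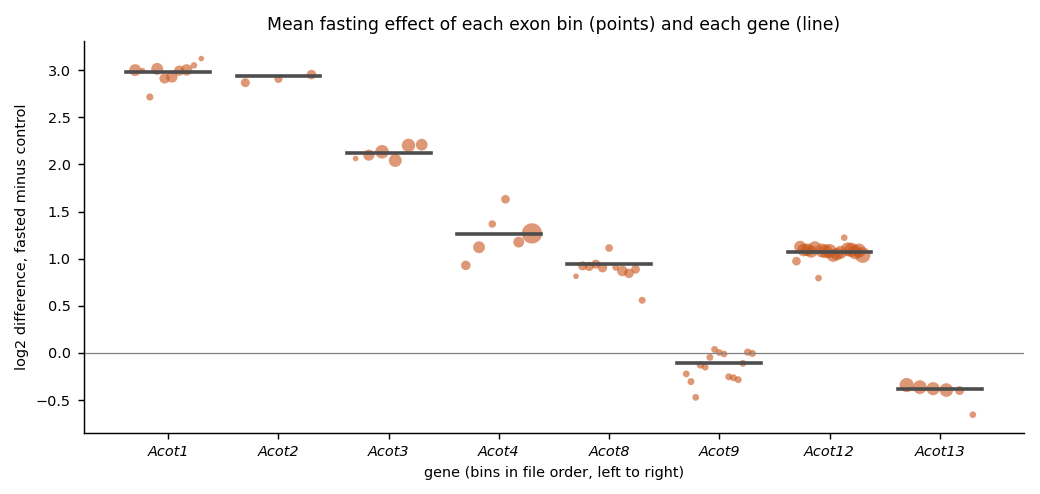
Log2 difference of each exon bin (fasted minus control, mean over CT12 to CT44) side by side for each gene in file order, with the whole-gene value as a line and larger points for bins with more counts in controls. The bins of 1 gene scatter about its line, and only Acot9 has bins on both sides of 0.

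Within the chromosome 12 cluster, the 2 genes that are not members gave few counts. Acot5, a peroxisomal enzyme close to Acot3 (83.4% identical coding sequence), was at 0 counts in 17 of 18 control males and reached 1 count at most, while control females had a median of 1 count and a maximum of 9. In fasted livers its median was 3.5 counts in males (maximum 39) and 32 counts in females (maximum 273), and all 18 fasted females had at least 1. Reads shared with its neighbours could contribute to these counts. Acot6 rose by 0.33 on the log2 scale (SE 0.11, edgeR adjusted p = 0.00763), with a median of 0.889 CPM in control males, 1.12 CPM in fasted males, 1.89 CPM in control females and 2.28 CPM in fasted females.

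The rest of the acyl-CoA pathway was summarised by lists, whose counts stand beside 29.5% of all genes higher and 32.9% lower. Of 8 other thioesterase genes tested, 2 rose and 4 fell, and no fold could be estimated for Acot5 and Them5. Acot11, best known from brown fat, fell by 1.39 on the log2 scale and Them6 by 0.46, while Them4 rose by 0.45 and Acot6, described above, was the other that rose. Of 18 acyl-CoA synthetases, which catalyse the opposite step, 8 rose and 8 fell, and no fold could be estimated for Acsl6. The fatty acid transporter Slc27a1 rose by 2.36, and Acss2 and Acsm2, which activate acetate and medium-chain acids, stood at -2.10 and -1.46. Of 12 genes for synthesis and breakdown of coenzyme A, 7 rose and 2 fell, among them Vnn1 (2.21), the pantetheinase, Pank1 (0.59), the rate-limiting kinase, and Nudt7 (-2.05), the peroxisomal coenzyme A hydrolase.

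Of 19 genes for peroxisomal beta-oxidation and transport, 14 rose and 2 fell, with a median log2 difference of 0.59. Ehhadh, the bifunctional enzyme, rose by 2.43, Pex11a, a factor of peroxisome division, by 1.71, and Crat, the carnitine acetyltransferase, by 1.61. Of 18 genes for mitochondrial beta-oxidation, 17 rose and 1 fell (median 0.75), with 1.46 for Cpt1a, 1.50 for Cpt1b and 1.19 for Acadm. Of 18 PPAR-alpha response genes, 15 rose and 1 fell (median 1.73, or 1.40 without Ucp3, for which no fold could be estimated). Cidec (5.62), Cyp4a14 (4.91) and Fgf21 (3.95) had the largest differences. Against these, 1 of 14 genes on the list for fatty acid synthesis rose and 12 fell (median -1.77). This list is not limited to enzymes of synthesis, and Pnpla3 (-4.36), Thrsp (-3.64) and Srebf1 (-3.13) had its largest differences. Of 18 core clock genes 10 rose and 4 fell, with 1.71 for Ciart, 1.46 for Per1 and 0.96 for Nr1d1.

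**Figure D5:**
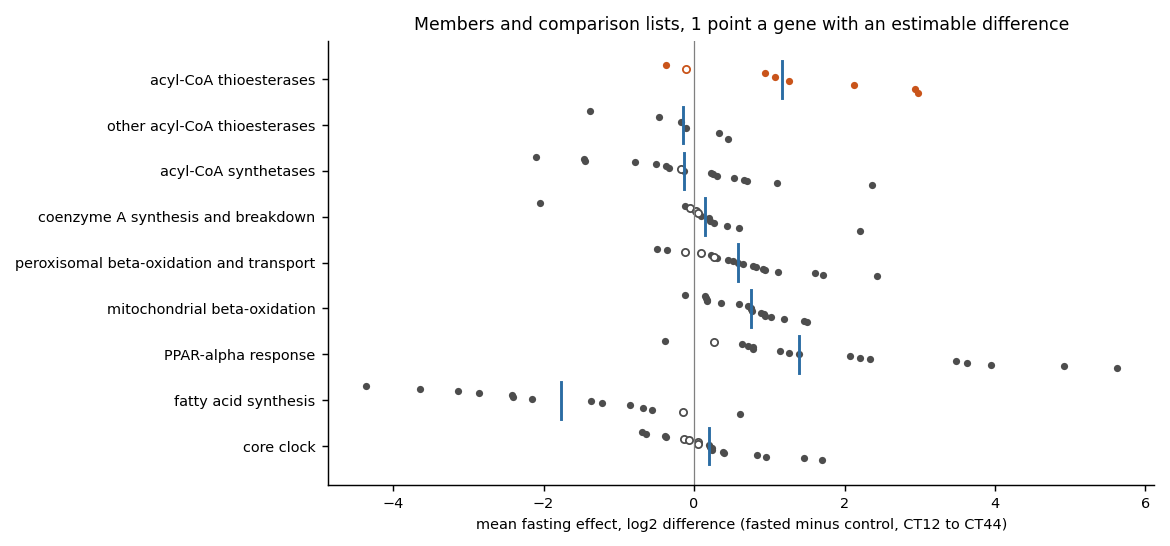
Mean fasting effect (log2, fasted minus control) of single genes in the 8 thioesterases and in each comparison list, with 1 point per gene (open where it did not pass the test), a bar at the median, and genes whose fold could not be estimated left out. The 6 rising thioesterases lie between 0.94 and 2.98, within the span of the PPAR-alpha response genes.

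Genes with the most similar course were named by Pearson's r of mean log2 CPM over the 20 groups of treatment and time, which share the contrast between fed and fasted and are given without a test. They were Elmod3 (0.983), Ttpa (0.979) and Cpt2 (0.978) for Acot1, and Slc22a5 (0.984), Rab30 (0.983) and Pex11a (0.982) for Acot2. Acot3 and Acot4 were each other's nearest gene (0.982), followed by Sec23a (0.954) and Nceh1 (0.953) for Acot3 and by Gemin2 (0.964) and Lmbrd1 (0.963) for Acot4. For Acot8 they were Slc25a20 (0.988), Acot2 (0.979) and Chp1 (0.976), and for Acot12 Serinc1 (0.982), Cpt1a (0.982) and Optn (0.977). Acot13 was closest to Naglu (0.967), Tmem242 (0.964) and Dgcr6 (0.961), and Acot9 to Psd4 (0.954), Gm47467 (0.909) and Pou2af1 (0.906).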

How the data were processed

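The authors deposited raw read counts per gene and per exon bin for 80 liver libraries, prepared as stranded poly(A) libraries from single mice. The submitters' processing notes name Trimmomatic, HISAT2, DESeq2 and the GRCm39 build, without versions, and the counting tool is not given in the sources used here. Rows naming no exon held 8.28 to 25.9% of the exon-table counts and were left out. Depth per library was 25534901 to 59927771 counts, and 0 per-sample columns were left unused. Groups came from the sample titles.

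Counts were analysed in R 4.3.3 with edgeR 4.0.16 (filterByExpr, TMM scaling, quasi-likelihood F test), with 1 mean for each treatment, time and sex, Benjamini-Hochberg adjustment over all genes tested and calls at an adjusted p below 0.05. Logarithmic levels used a prior count of 2. Rhythms were 24 h cosines fitted with sex as a covariate, and exon usage was tested with diffSpliceDGE. Alternatives used DESeq2 1.42.0, limma 3.58.1, other scalings and filters, single sexes, omitted replicates, times or libraries, and a replicate block. The fits were tested on simulated data, where 200 of 200 genes changed by 1 on the log2 scale were recovered for the mean fasting effect, 86% of them for a single time (CT24) and 96% for the control rhythm. Positions and exon lengths came from GENCODE M21 on GRCm38, a build older than that of the counts, and promoters from RefSeq tables of GRCm38.p6. Figures were drawn with matplotlib 3.10.9.

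The members and the comparison lists were chosen with earlier results of these data known. All 8 members are named, and from each list up to 3 genes with the largest absolute mean effect among those past the threshold, and for each member the 3 genes with the highest correlation over the 20 groups. Sex contrasts within each treatment and at each time, and the fits without the library fasted CT40 female 2, were added after the data were seen.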

Additional observations from a re-analysis of the deposited data

Results flagged for a closer look

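Within the groups of 4 libraries, a single library stood apart from the other 3 in 10 of 160 combinations of gene and group, where its gap to the nearest other library, divided by the group's range, exceeded Dixon's 95% critical value. For 4 values from 1 normal distribution, about 8 of 160 would be flagged by chance. Each group held 2 males and 2 females, so this number need not apply to genes whose level differed by sex. Of the 10 libraries, 5 were high and 5 low. For Acot1 the ratio of gap to range was 0.855 for control CT20 female 1 (low), 0.854 for control CT44 female 1 (high), 0.881 for fasted CT12 female 1 (high) and 0.893 for fasted CT40 male 2 (low). It was 0.911 for Acot2 in fasted CT36 female 1 (high) and 0.874 for Acot3 in fasted CT24 male 1 (low). For Acot9 it was 0.900 in fasted CT16 male 2 (low), 0.931 in fasted CT24 male 2 (low) and 0.854 in fasted CT44 male 1 (high), and for Acot12 it was 0.830 in control CT44 female 1 (high).

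The fasting effect differed between the sexes, as female minus male effect on the log2 scale, by -3.33 for Acot3, -1.18 for Acot4, 0.30 for Acot8 and -0.46 for Acot13. It changed between times for Acot1 (edgeR adjusted p = 0.00667), Acot2 (9.53e-06), Acot4 (0.0137), Acot8 (0.000209) and Acot12 (7.34e-07). The fitted 24 h course differed between fasted and control livers for Acot2 (edgeR adjusted p = 6.37e-05), Acot4 (0.0229), Acot8 (0.0185) and Acot12 (5.86e-07).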

How the results depend on the processing

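No result changed direction in a called value. For the mean fasting effect, 203 of 206 values under alternative settings kept direction and call, the exceptions being Acot3 in females alone (0.46, edgeR adjusted p = 0.105) and with no sex in the model (0.93, 0.0736), and Acot9 without CT12 (-0.14, 0.0309). Leaving out 1 replicate of a sex in every group moved the member calls for the change over time to 2 to 6 (main 5), for the sex difference of the effect to 1 to 4 (main 4), for the control rhythm to 2 to 4 (main 5) and for each time to 39 to 50 (main 49). Over all genes those fits gave 1186 to 7051 calls for the change over time (main 7130), 238 to 2473 for the sex difference of the effect (main 2621), 2461 to 3374 for the difference between rhythms (main 4537), 25717 to 42287 over the 9 times (main 48836) and 0 to 2123 at CT8 (main 282). The lowest counts came without male replicate 1 or 2. Fits that leave out a replicate leave 1 library per sex in a group, whose spread is taken from the other groups.

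Females alone gave 2 members for the control rhythm, 1 for the fasted rhythm and 1 for the difference (mains 5, 7 and 4), and males alone gave 2 and 4 for the first and second. Over all genes, females alone gave 4692, 4082 and 1560 and males alone 5104, 5893 and 2354, beside 8417, 9395 and 4537, from fewer libraries. Exon usage gave 950 genes with at least 10 counts in every library, which left Acot3 and Acot9 untested, and 905 to 1209 without CT40 and 1 replicate (911 without female replicate 1, 1016 without male replicate 1, main 1986), with 0 members throughout. At CT8 the calls over all genes were 0 from the 8 libraries alone, 556 by DESeq2, 4 by limma, 1 with the replicate block and 11 without control CT8 female 2, with the cause not tested.

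Replicate numbers were checked for pairing, and over 18 pairs the correlation of deviations ran from -0.056 to 0.249, with 1 above 0.1, so the numbers were not taken as pairs. With a replicate block, 7 members passed for the mean effect and 49 calls were made over the 9 times, as without it, while the change over time kept 4 members (Acot4 adjusted p = 0.0571) and the sex difference 3 (Acot8 adjusted p = 0.0788). With 2 mice per sex and time, single-time differences could be missed. Of simulated differences of 1 on the log2 scale, 86% were recovered at CT24.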
